A study of Mus musculus with 4 samples.

Results

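The Myc, Max and Mxd network is a small family of transcription factors that compete for a common partner and for the same DNA site. Its 10 genes here were Myc, Mycn, Mycl, Max, Mxd1, Mxd3, Mxd4, Mxi1, Mnt and Mlx. They were taken by symbol from the rows of the deposited array table that the platform annotation assigns to a single gene, keeping the row with the highest mean where a gene had several. All 10 were found among the 22180 genes measured this way. The set was built around Myc, which was picked because it was higher on the decitabine arrays, so its difference is given below as a description, without a test. The other 9 genes belong to the set by name, although the set was chosen with earlier results of these data known.

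The RNA came from BR5FVB1-Akt, a mouse cell line labelled as ovarian cancer. Cells of 1 group were given 10 uM decitabine for 72 h, and those of the other group received none. Each group had 2 samples that the labels call biological replicates, each hybridised to its own Affymetrix Mouse Gene ST array. Decitabine is a deoxycytidine analogue that traps DNA methyltransferases on replicating DNA, and DNA methylation falls as the cells divide. All samples share the same line, and the labels describe no engineered allele. Lines of the BR5 family are known as ovarian cells that lack Trp53 and Brca1 and carry an introduced Myc, and the name of this line adds Akt. The labels do not say which of this holds here, so a Myc value may count transcripts of the endogenous gene, of an introduced copy, or of both. Nothing in the labels says whether replicates were separate cultures, so the p-values may not cover variation between cultures. They set a group difference against the spread between arrays of a group, estimated in part from other genes.

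Myc, Mycn and Mycl are basic helix-loop-helix leucine zipper proteins that bind DNA as dimers with Max. The dimers recognise the E-box CACGTG, recruit histone acetyltransferases and raise genes for ribosome assembly, nucleotide synthesis and cell division. Mxd1, Mxd3, Mxd4, Mxi1 and Mnt also pair with Max, bind the same site and bring in Sin3 and histone deacetylases, which lowers transcription there. Mlx is a Max-like protein that pairs with some of these antagonists and with the glucose-responsive factors Mlxip and Mlxipl. MYC lies in a region that is often amplified in ovarian carcinoma.

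The E-box was searched for in RefSeq promoter windows (GRCm38.p6, 300 bases, from 250 before to 50 after a gene's start), to see which genes of the network carry the site that its own dimers read. CACGTG is its own reverse complement, so 1 search covers both strands, and no other motif was searched. Of the 10 members all but Myc had a window. The site was present in those of Max, Mxd4, Mnt and Mlx, which is 4 of 9 genes or 44.4%. Of the 16990 measured genes with a window 9.19% carried it, and of all 32851 windows 7.15% did. The sites are printed with the bases around them, 5′ to 3′ on the strand of the gene, with the E-box in capitals. That of Max lies at chr12:76962234-76962263 on the minus strand and begins 3 bases before the start, that of Mxd4 at chr5:34187912-34187941 on the minus strand and begins 219 bases before it. That of Mnt lies at chr11:74830789-74830818 on the plus strand, 123 bases before the start, and that of Mlx at chr11:101087238-101087267 on the plus strand, 40 bases before it.
Max: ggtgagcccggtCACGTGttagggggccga
Mxd4: gggctgggccacCACGTGctgttgctaagc
Mnt: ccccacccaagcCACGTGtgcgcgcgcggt
Mlx: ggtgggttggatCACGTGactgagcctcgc

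A match of these letters is a description and not a measured binding site. The 4 genes did not share a direction on the arrays, as Max and Mlx were slightly higher and Mxd4 and Mnt lower with decitabine. The windows of the members also differed in CpG dinucleotides, the sequence in which DNA methylation is placed. The 11 windows of the 9 genes held from 14 CpGs, in Mycn, to 49, in 1 of the 3 windows of Mxi1. Their median was 22, against 13 in all windows of measured genes. The E-box itself holds a CpG, so the E-box shares above compare windows of unlike CpG content, and the part of this was not tested. The window of Mxd1 held 39 and that of Mxd4 held 18. Methylation itself was not measured in these samples.

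With decitabine Myc was 2.79-fold higher, and all 5 antagonists of the Mxd, Mxi1 and Mnt group had a lower mean, led by Mxd4. Max, Mlx, Mycn and Mycl each had a higher mean, with differences smaller than those of Myc and Mxd4. Of the 9 members other than Myc 0 passed an adjusted p under 0.05 in limma, which was fitted to all genes and adjusted by the Benjamini-Hochberg method. At that threshold 0.131% of all genes were called higher and 0.0135% lower. Counting instead genes whose p was under 0.05 before adjustment (by raw p), the other 9 members had 0 higher and 1 lower, where 7.34% of all genes were higher and 6.97% lower. When limma's variance was allowed to follow the level of a gene (an intensity trend), the same count was 0 higher and 1 lower, against 3.68% and 3.6% of all genes. In a culture measured in bulk, fewer cells with a transcript and less transcript per cell cannot be told apart.

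Myc itself was measured by 1 row, 17311846, assigned to the gene on chromosome 15. Its log2 expression was 6.58 and 6.81 without decitabine and 8.18 and 8.17 with it. The decitabine arrays lay almost on one value, the control arrays were 0.22 apart, and the groups were separated by 1.36. The group means were 6.69 ± 0.16 and 8.17 ± 0.01 (SD, n = 2), a log2 difference of 1.48. Among the log2 fold changes of all genes that of Myc stood at percentile 99.87. It lay between 1.37 and 1.59 when any 1 array was left out.

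The differences of its relatives were smaller. Mycn, the paralogue known from neuroblastoma and from early development, is on chromosome 12. It measured 6.51 and 6.28 without decitabine and 6.73 and 6.64 with it. The lower decitabine array was 0.14 above the higher control array, while the control arrays were 0.23 apart. The log2 fold change of Mycn was 0.29 ± 0.12 with an adjusted p of 0.370, and its interval ran from −0.02 to 0.61. Mycl, the paralogue known from small cell lung cancer, is on chromosome 4. It measured 4.61 and 4.60 without decitabine and 4.58 and 4.80 with it, so the groups overlapped. Mycl differed by 0.08 ± 0.12 on the log2 scale (adjusted p = 0.803), with an interval from −0.21 to 0.38. The mean level of the Mycl row was below the median over all genes, and without decitabine replicate 2 its log2 fold change turned to −0.024.

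Max, the obligatory partner of the Myc proteins, measured 8.04 and 8.09 without decitabine and 8.28 and 8.16 with it. The groups did not overlap, yet the gap of 0.07 between them was smaller than the 0.12 between the decitabine arrays. Its log2 fold change was 0.15 ± 0.10 (adjusted p = 0.563). The interval, from −0.11 to 0.42, left out a difference of the size seen for Myc. Mlx measured 7.68 and 7.80 without decitabine and 7.82 and 7.88 with it, a gap of only 0.02 between the groups. Mlx differed by 0.11 ± 0.10 on the log2 scale (adjusted p = 0.698).

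Mxd4 differed more than any other antagonist of the set. Its product pairs with Max and recruits Sin3, and some Mxd genes are known to be expressed as cells stop dividing and differentiate. Mxd4 measured 8.17 and 8.09 without decitabine and 7.57 and 7.37 with it. Both decitabine arrays were below both control arrays, with a gap of 0.52 against a distance of 0.20 between the decitabine arrays. The log2 fold change was −0.66 ± 0.12, a level 1.58-fold lower, with an interval from −0.96 to −0.36. In the fit without a trend Mxd4 did not pass (adjusted p = 0.142). It passed with the intensity trend (adjusted p = 0.00176) and when the fit was limited to genes over the median level (adjusted p = 0.0145). Over all alternatives its adjusted p lay between 0.00176 and 0.576, and its log2 fold change between −0.76 and −0.56.

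Mxi1, another antagonist that pairs with Max, was represented by 2 rows. The row kept, 17360331, measured 8.66 and 8.80 without decitabine and 8.44 and 8.50 with it. Its groups did not overlap, and its log2 fold change was −0.26 ± 0.11 (adjusted p = 0.366). The other row, 17365690, measured 7.56 and 7.50 without decitabine and 7.20 and 7.21 with it, a log2 difference of −0.33. Both rows of Mxi1 were thus lower on both decitabine arrays. They come from the same RNA samples and are not separate replicates.

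The remaining antagonists differed by small amounts. Mxd3 measured 5.69 and 5.54 without decitabine and 5.49 and 5.39 with it (log2 fold change −0.18 ± 0.11, adjusted p = 0.536). Mxd1 measured 8.19 and 8.17 without decitabine and 8.16 and 8.02 with it (−0.09 ± 0.10, adjusted p = 0.751). The gap between the groups was 0.05 for Mxd3 and 0.01 for Mxd1, less in each case than the distance between the decitabine arrays. Mnt, a widely expressed antagonist, measured 7.03 and 6.97 without decitabine and 7.02 and 6.78 with it, so its groups overlapped. Its log2 fold change was −0.10 ± 0.12 (adjusted p = 0.771), and without decitabine replicate 2 it was 0.022.

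**Figure D1:**
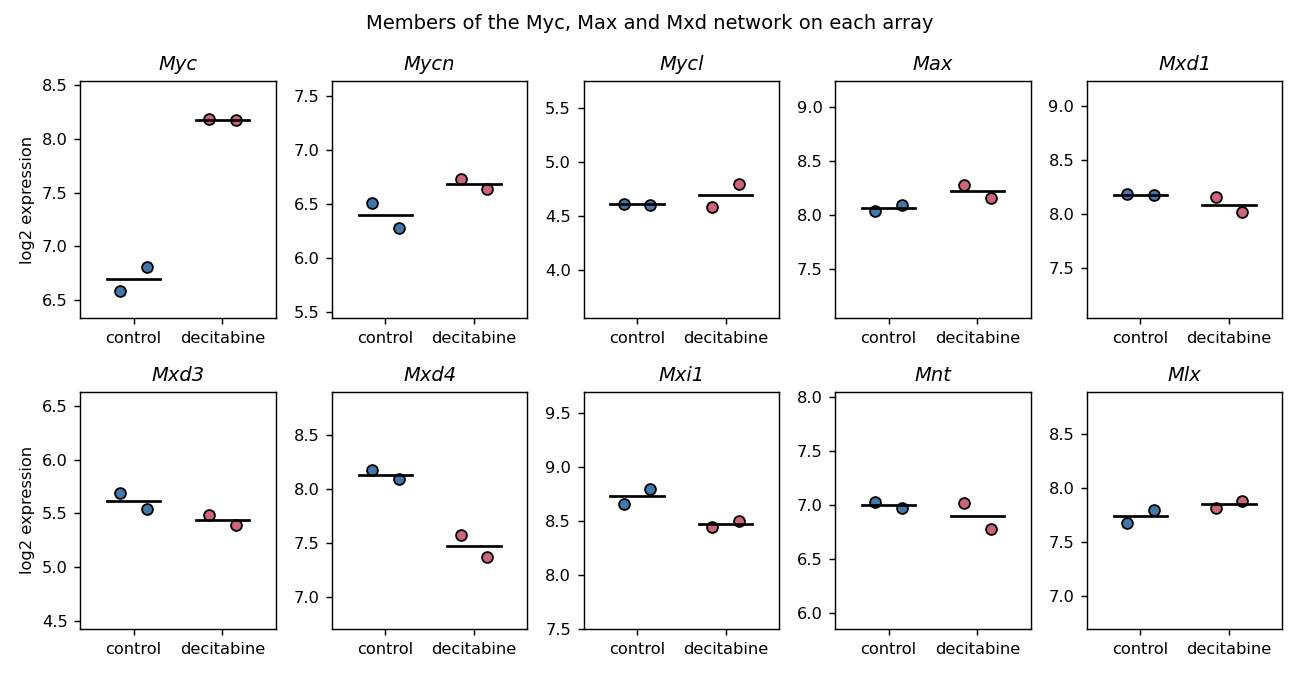
Log2 expression of the 10 network genes on each array, with control arrays in blue, decitabine arrays in red and the mean of each group as a line. Every panel spans the same log2 distance around the gene's mean, so group differences can be compared between panels and levels cannot. The groups stand well apart in Myc (6.58 and 6.81 against 8.18 and 8.17) and Mxd4 (8.17 and 8.09 against 7.57 and 7.37).

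Read by role, Mycn and Mycl had a higher mean with decitabine and the 5 antagonists a lower one. Myc was picked for its rise and is not counted here. Of the 9 members other than Myc, both decitabine arrays lay above both control arrays in 3 (Mycn, Max and Mlx). They lay below them in 4 (Mxd1, Mxd3, Mxd4 and Mxi1), while Mycl and Mnt overlapped. Of all genes 50.7% had a positive and 49.3% a negative log2 fold change, 23.4% had both decitabine arrays above and 22.5% had both below. The median log2 fold change of the 5 antagonists was −0.18, and that of all genes tested was 0.00. Averaged over the 5 antagonists, the arrays stood at 7.55 and 7.52 without and at 7.34 and 7.21 with decitabine. The direction of each member's fold change was kept when the arrays were quantile normalized or centred on their medians.

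**Figure D2:**
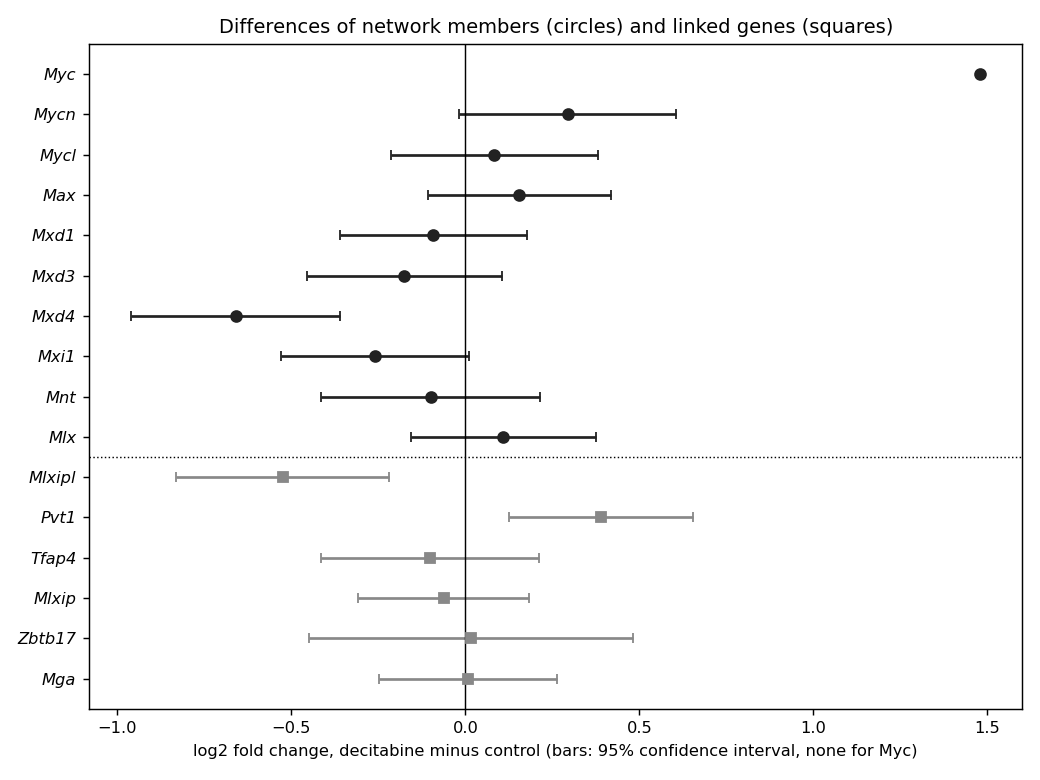
Log2 fold change (decitabine minus control) of the 10 network genes as circles and of 6 linked genes as grey squares, with 95% confidence intervals from limma for all but Myc, whose difference was not tested. Myc stands at 1.48, the interval of Mxd4 lies below 0 (−0.96 to −0.36), and those of the other 8 network genes include 0.

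Genes that work beside the network were read from lists of their known roles. Mlxipl (ChREBP), which pairs with Mlx and raises genes of sugar and fat metabolism, measured 7.22 and 7.24 without decitabine and 6.82 and 6.59 with it. Its log2 fold change was −0.52 ± 0.12 (adjusted p = 0.192, and 0.0140 with the intensity trend). Mlxip (MondoA), the other partner of Mlx, stood at −0.06 ± 0.10 and Mga, a large protein that also pairs with Max, at 0.01 ± 0.10 (each named once its value had been seen). Tfap4, a factor of the same protein class and a known Myc target, stood at −0.10 ± 0.12. Pvt1, the long non-coding RNA gene that lies next to Myc, measured 4.95 and 4.96 without decitabine and 5.41 and 5.28 with it. The Pvt1 difference was 0.39 ± 0.10 (adjusted p = 0.228). The nearest measured gene on the other side of Myc, D030024E09Rik, stood at 0.12 ± 0.12 with overlapping groups.

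Next came the genes for proteins through which the dimers act on chromatin. Of 14 measured coactivator genes 0 passed in limma, with 0 higher and 1 lower by raw p, beside 7.34% and 6.97% of all genes. With the intensity trend 0 passed in either direction, beside 3.68% higher and 3.6% lower of all genes. Trrap, the scaffold of Myc-bound acetyltransferase complexes, stood at −0.26 ± 0.10, Wdr5, which helps Myc reach chromatin, at 0.21 ± 0.10 and Ruvbl2, an ATPase of those complexes, at −0.17 ± 0.10. Of 11 corepressor genes 0 passed either, with 0 higher and 1 lower by raw p. A count of 1 in lists of this size is near the share of all genes, and the 1 coactivator was lost without any 1 array, the 1 corepressor without any but decitabine replicate 1. The corepressor list included Sin3a, the platform that the Mxd proteins bind, at −0.32 ± 0.10. Sin3a measured 9.17 and 9.16 without decitabine and 8.87 and 8.81 with it, and it was the 1 corepressor that passed with the trend (adjusted p = 0.0131, against 0.254 without). Sap30, a Sin3 complex subunit, stood at −0.29 ± 0.14, and Kdm5a, a histone demethylase, at −0.15 ± 0.10.

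Among 23 genes whose products stabilise or degrade the Myc protein, 0 passed in limma. By raw p 2 were higher and 2 lower, near the share of all genes (7.34% and 6.97%). With the intensity trend 2 were higher and 2 lower, where 3.68% and 3.6% of all genes were. The 2 higher by raw p became 1 without any 1 array, and the 2 lower became 0 without control replicate 1 and 1 without decitabine replicate 2. Usp36, a nucleolar deubiquitinase of Myc, stood at 0.36 ± 0.10, and Usp28, a deubiquitinase that counters the ligase subunit Fbxw7, at −0.41 ± 0.12. The kinase gene Pim2 stood at −0.34 ± 0.10. Fbxw7 itself, named after its value was seen, stood at 0.12 ± 0.12 with overlapping groups. Of 20 genes that act on Myc transcription 0 passed in limma, and 1 was higher with the trend, where 3.68% of all genes were. By raw p 2 were higher and 0 lower, again near the share of all genes. The 2 became 0 without control replicate 1 or decitabine replicate 1, and 1 without either other array. The Notch effector Rbpj stood at 0.28 ± 0.10, the cell cycle factor Foxm1 at 0.46 ± 0.17 and the NF-kB subunit Rela at 0.22 ± 0.11. These lists had medians of −0.01 (coactivators), −0.06 (corepressors), 0.01 (turnover) and 0.05 (transcription) on the log2 scale, all within 0.1 of that of all genes.

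Genes known to be raised by Myc were grouped by function, in lists chosen with earlier results of these data known. In none of the 6 groups did a gene pass over all genes in limma without a trend. The largest group, nucleolus and ribosome assembly, had 28 measured genes. Of these 27 had a positive log2 fold change, where 50.7% of all genes did, and the median was 0.23. The exception was Npm1 at −0.07 ± 0.11 (named after its value was seen). By raw p 11 genes were higher and 0 lower, beside 7.34% and 6.97% of all genes. With the intensity trend 11 rose and 0 fell over all genes, beside 3.68% and 3.6% of all genes. All 28 lay above the median level of all genes. When limma was limited to genes above that level, 7 were higher and 0 lower by adjusted p, where 635 and 616 of 11090 genes were. Averaged over the group, the control arrays stood at 8.70 and 8.70 and the decitabine arrays at 8.94 and 8.96. Rrp12, which serves the export of ribosomal subunits, measured 7.04 and 7.12 without decitabine and 7.83 and 7.77 with it. Its log2 fold change of 0.72 ± 0.10 had an adjusted p of 0.101 without the trend. The RNA helicase gene Ddx21 stood at 0.52 ± 0.10 and Wdr43, a subunit of the small-subunit processome, at 0.47 ± 0.10. Without control replicate 1 the 11 genes by raw p became 5, and without either control replicate 2 or decitabine replicate 2 they became 7.

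Nucleotide, polyamine and one-carbon synthesis had 17 measured genes, with a median log2 fold change of 0.16. It was positive in 14 of them, beside 50.7% of all genes. By raw p there were 6 higher and 0 lower, beside 7.34% and 6.97% of all genes. With the intensity trend 6 rose and 0 fell, beside 3.68% and 3.6%. All 17 lay above the median level. In limma limited to such genes 4 were higher and 0 lower by adjusted p, where 635 and 616 of 11090 genes were. Odc1, the first enzyme of polyamine synthesis and a classical Myc target, measured 8.33 and 8.33 without decitabine and 8.84 and 8.78 with it. The log2 fold change of Odc1 was 0.48 ± 0.10 (adjusted p = 0.163). Mthfd2, a mitochondrial folate enzyme, measured 8.13 and 8.11 without and 8.69 and 8.71 with decitabine, a log2 fold change of 0.58 ± 0.09 (adjusted p = 0.126). The nucleoside diphosphate kinase gene Nme1 stood at 0.49 ± 0.10. In Odc1 and Mthfd2 the distance between the groups was several times that between replicates, and neither passed without the trend. The 6 genes higher by raw p became 3 without control replicate 2 and 4 without any other 1 array.

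The other groups of raised targets were smaller or mixed. Of 11 genes of glucose and glutamine use 2 were higher and 3 lower by raw p, where 7.34% and 6.97% of all genes were, and the median was 0.00. Pdk1, a kinase that holds pyruvate back from the mitochondrion, measured 8.36 and 8.32 without decitabine and 7.85 and 7.67 with it (−0.58 ± 0.11). The amino acid transporter subunits Slc7a5 (0.52 ± 0.11) and Slc3a2 (0.35 ± 0.10), whose products form 1 transporter, were positive. Ldha, a much-studied Myc target named after its value was seen, stood at 0.03 ± 0.10. With the intensity trend 2 genes of this group rose and 1 fell, beside 3.68% and 3.6% of all genes. The 3 lower by raw p became 1 without either control replicate or decitabine replicate 2, and the 2 higher became 1 without control replicate 1.

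Of 9 translation genes 1 was higher and 0 lower by raw p, beside 7.34% and 6.97% of all genes, and the 1 was lost without control replicate 2. The group was led by Eef1e1 (0.38 ± 0.10) and Eif6 (0.29 ± 0.11), while the helicase gene Eif4a1 stood at −0.27 ± 0.12. With the trend 3 of the translation genes rose and 1 fell, beside 3.68% and 3.6% of all genes. Of 14 mitochondrial and chaperone genes 1 was higher and 1 lower, both by raw p and with the trend, near the share of all genes by raw p, and both by raw p were lost without any 1 array but control replicate 2. Prdx3, a mitochondrial peroxidase, stood at −0.34 ± 0.11, Ndufaf4, an assembly factor of respiratory complex I, at 0.33 ± 0.12, and cytochrome c (Cycs) at 0.30 ± 0.12. Of 17 cell cycle genes 2 were higher and 1 lower by raw p, beside 7.34% and 6.97% of all genes. With the trend 3 of them rose and 0 fell, beside 3.68% and 3.6%. By raw p 1 was higher without control replicate 1, and 2 were lower without decitabine replicate 1. Cyclin D1 (Ccnd1) measured 7.00 and 7.23 without decitabine and 7.72 and 7.83 with it, a log2 fold change of 0.66 ± 0.12. Mcm5, a subunit of the replicative helicase, stood at 0.34 ± 0.10 and the telomerase gene Tert at −0.44 ± 0.10.

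**Figure D3:**
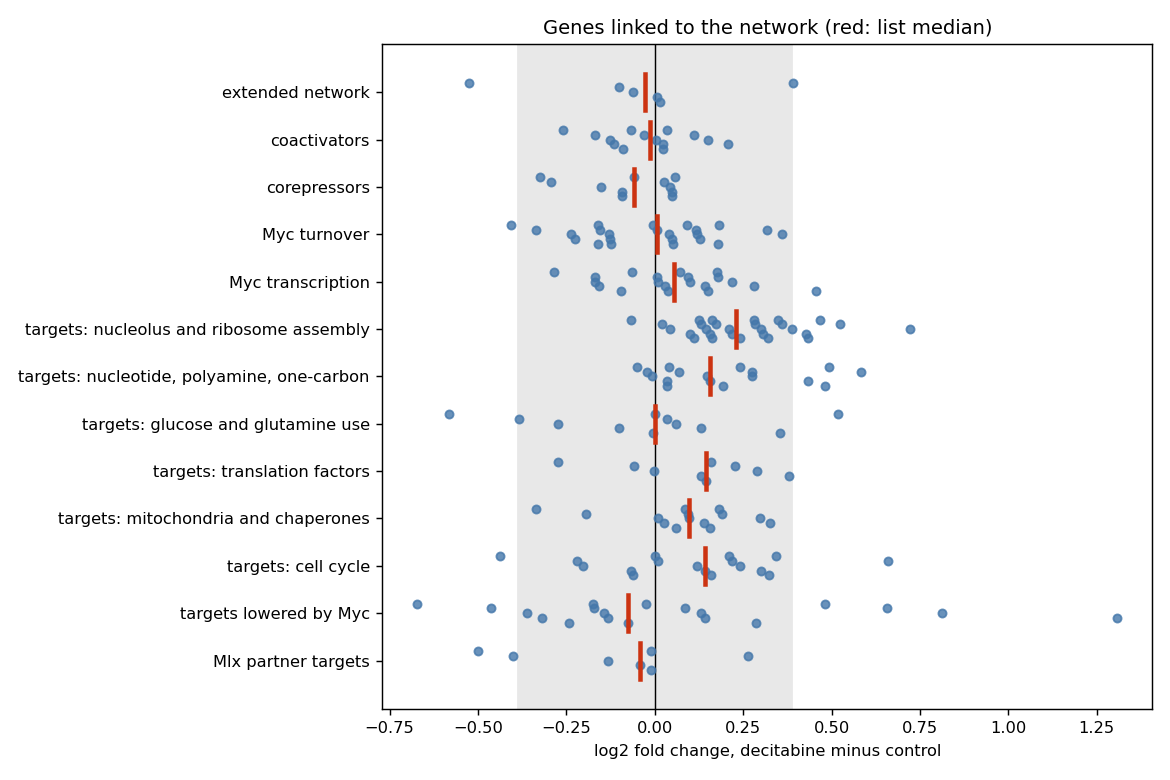
Log2 fold change (decitabine minus control) of each measured gene in 13 lists around the network, 1 point per gene, with the list median in red and the range between percentiles 5 and 95 of all 22180 genes in grey. The medians of the nucleolar (0.23) and nucleotide (0.16) target lists lie to the right of 0, and the list of targets lowered by Myc holds both the highest point, Cdkn1a at 1.31, and the lowest, Gas1 at −0.67.

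Genes known to be lowered by Myc did not share a direction. Of 19 measured genes 0 passed over all genes in limma, with 5 higher and 3 lower by raw p, beside 7.34% and 6.97% of all genes, and a median of −0.08. With the intensity trend 5 rose and 2 fell, beside 3.68% and 3.6%. Cdkn1a, the CDK inhibitor p21 that Myc lowers together with Zbtb17, measured 6.35 and 6.33 without decitabine and 7.78 and 7.52 with it. Its log2 fold change of 1.31 ± 0.12 had an adjusted p of 0.0579 without the trend. The secreted chaperone gene Clu measured 9.87 and 9.72 without and 10.46 and 10.45 with decitabine (0.66 ± 0.11). Gas1, a growth arrest gene, measured 10.45 and 10.39 without decitabine and 9.84 and 9.66 with it (−0.67 ± 0.11). The 5 higher genes by raw p became 3 without control replicate 2 or decitabine replicate 1, and the 3 lower ones became 1 without control replicate 1. Clu and Cdkn1a were thus higher together with Myc on these arrays, and Gas1 was lower. Zbtb17, named after its value was seen, stood at 0.02 ± 0.18.

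Of 7 targets of the Mlx partners 0 passed in limma, with 0 higher and 2 lower by raw p, where 7.34% and 6.97% of all genes were. With the trend 1 was lower, beside 3.6% of all genes. The 2 lower by raw p became 1 without control replicate 1 or decitabine replicate 2. Khk, the enzyme that opens fructose metabolism, measured 7.57 and 7.47 without decitabine and 7.02 and 7.03 with it (−0.50 ± 0.10). Acacb, an acetyl-CoA carboxylase, stood at −0.40 ± 0.13 and Klf10, a zinc finger factor, at 0.26 ± 0.11. Txnip, the best-known MondoA target, named after its value was seen, stood at −0.01 ± 0.11 with overlapping groups.

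Among the target and partner genes named so far, Mlxipl, Wdr43, Khk, Nme1, Ldha and Eif4a1 carried the E-box in their windows. The sites of the first 4 are printed, a choice made after their values were seen, because these genes had some of the larger differences of their lists. The site of Mlxipl lies at chr5:135089780-135089809 (plus strand), 98 bases before the start. That of Wdr43 lies at chr17:71616220-71616249 (plus strand), 17 bases after it, and that of Khk at chr5:30921476-30921505 (plus strand), 71 bases before it. Nme1 had a site in each of 2 windows, at chr11:93968273-93968302 and at chr11:93968037-93968066 (minus strand).
Mlxipl: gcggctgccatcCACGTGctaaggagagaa
Wdr43: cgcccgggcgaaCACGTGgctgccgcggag
Khk: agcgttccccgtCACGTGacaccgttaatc
Nme1, window 1: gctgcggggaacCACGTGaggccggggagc
Nme1, window 2: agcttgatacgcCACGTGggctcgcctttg

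Wdr43 and Nme1 were higher on both decitabine arrays and Mlxipl and Khk lower. Over all lists of raised targets, 25 of 94 genes with a window (26.6%) carried the site. Those measured had a median log2 fold change of 0.06 (21 genes), and those without the site one of 0.15 (62 genes). In the nucleolar list the order was the other way round, at 0.32 for 7 genes with the site and 0.16 for 17 without it.

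The genes whose pattern was most like that of Myc were found by the Euclidean distance between log2 values over the 4 arrays, after subtracting each gene's mean. The 6 nearest were the chemokine gene Ccl7 (distance 0.09), the hyaluronan receptor gene Cd44 (0.10), the mitochondrial nucleotide kinase gene Cmpk2 (0.14), 2610528A11Rik (0.22), the ephrin receptor gene Epha4 (0.22) and the guanylate-binding protein gene Gbp3 (0.23). Cd44 measured 4.26 and 4.58 without decitabine and 5.98 and 5.95 with it, with the higher control value in replicate 2 as in Myc. Myc was picked for its rise, so a small distance mostly calls for a log2 fold change close to its own. The other members had smaller or negative fold changes, and their ranks largely restate these. Mycn came at rank 2165 of all genes, with a distance of 1.23, and Mxd4 at rank 21967, with 2.15.

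**Figure D4:**
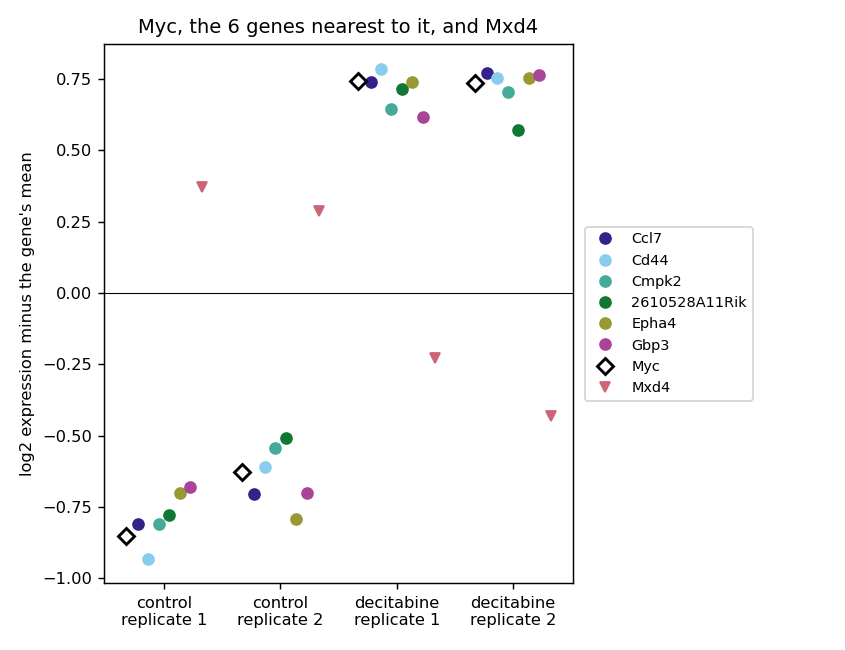
Log2 expression minus each gene's mean over the 4 arrays, for Myc (open diamonds), the 6 genes at the smallest distance from it (circles) and Mxd4 (triangles). Myc and its 6 nearest genes lie below 0 on both control arrays and above it on both decitabine arrays, and Mxd4 lies the other way round.

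All pairs of arrays were highly correlated, slightly less between the groups than within them. Across genes, which do not replicate each other, Pearson's r was 0.995 for the control pair, 0.993 for the decitabine pair and 0.990 to 0.991 for pairs from different groups. Of the markers of ovarian and mesothelial epithelium, Wt1 (10.53 to 10.86) and Krt18 (9.22 to 9.57) were well measured, while Pax8 (3.46 to 3.62) lay below percentile 25 of level over all genes (markers chosen with their values known). Of the 13 measured epithelial markers 6 were higher and 1 lower by raw p, beside 7.34% and 6.97% of all genes, and the 6 became 3 without either control replicate. Their mean level was 7.16 to 7.21 on control and 7.38 to 7.45 on decitabine arrays. For 9 fibroblast markers these mean levels were 7.89 to 7.92 and 8.02 to 8.13, for 12 leukocyte markers 4.28 to 4.37 and 4.43 to 4.56, and for 7 endothelial markers 4.20 to 4.28 and 4.37 to 4.43. The pan-leukocyte gene Ptprc, named with its value known, stood between 3.01 and 3.24. Of the 12 leukocyte markers 7 lay above percentile 25 of level. All 7 had a positive log2 fold change, where 50.7% of all genes did. Over the 12 leukocyte markers 10 were positive, with 2 higher and 0 lower by raw p, beside 7.34% and 6.97% of all genes. Of the 7 endothelial markers 5 were positive, with 2 higher and 0 lower by raw p. In the fibroblast list, whose genes are also named with their values known, Thy1 differed by 1.48 ± 0.17 on the log2 scale, while the list median was 0.02, 5 of 9 genes were positive, and Pdgfra (−0.28 ± 0.10) and Col3a1 (−0.25 ± 0.11) were lower in mean. The part of these markers in the values above was not tested.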

How the data were processed

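Total RNA of 4 samples was labelled with biotin and hybridised to Affymetrix Mouse Gene ST arrays, per the labels. The deposited table holds 1 value per row and array for 41345 rows, read here as log2 expression from its range. How the authors summarised, background-corrected and scaled the values, and the log base, are not given in the sources used here, so fold changes rest on that reading. No background level was set for any row. The platform table gave 23521 rows 1 gene symbol, 1814 several and 16010 none. The highest-mean row was kept for the 1082 genes with several rows.

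The 22180 genes were fitted in R 4.3.3 by limma 3.58.1 (functions lmFit and eBayes, no trend, two-sided), with a term for the group and no other. P-values were adjusted across these genes by the Benjamini-Hochberg method and called under 0.05. The fit was also run on data simulated from limma's own variance model, with planted changes larger than any reported here. That run cannot say how the fit does with changes of the size reported here. Unless given as SD, ± values are limma's standard errors of a log2 difference. With 2 arrays per group, an exact permutation test cannot go below 0.333, and the number of arrays limits precision. The members and gene lists were chosen with earlier results of these data known. The text names all members, of each pathway list every gene past the threshold or otherwise the 3 with the smallest p, the 6 genes nearest to Myc and its neighbours. A gene outside this rule is marked as chosen with its value known. Of the listed genes, those without a row of a single symbol were left out. Promoter windows are from RefSeq (GRCm38.p6), and the arrays come with no genome build, so gene coordinates are not given. Figures were drawn with matplotlib 3.10.9 in Python 3.11.15.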

Additional observations from a re-analysis of the deposited data

How the results depend on the processing

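Over all genes 29 were called higher and 3 lower. With arrays centred on their medians 8 were lower. With genes above the 25th percentile of level 151 were higher and 64 lower, and above the median level 635 and 616. With the intensity trend there were 817 higher and 798 lower, with robust eBayes 15 higher, and with the mean of a gene's rows 5 lower. Testing all rows gave 0 and 0, and leaving out any 1 array gave 0 to 0 in both directions. The samples share only a replicate number: with it as a block 0 genes were higher and 0 lower, and the deviations of same-numbered arrays had a correlation of −0.02. Among raised targets of Myc, 0 genes passed in either direction in the reported fit, and leaving out any 1 array again gave 0 to 0. Of the 96 measured targets 1 was higher above the 25th percentile of level, where 151 of 16635 genes were. Above the median level 16 were higher and 2 lower, where 635 and 616 of 11090 genes were. With the trend 26 were higher and 3 lower, beside 3.68% and 3.6% of all genes. The other lists held 6 linked, 14 coactivator, 11 corepressor, 23 turnover, 20 transcription, 19 lowered and 7 Mlx partner genes measured. Among them (0 and 0 as reported) 1 was higher above the 25th percentile, and 5 were higher and 4 lower above the median level. With the trend 8 were higher and 7 lower, to be read beside the same counts and shares over all genes. The cause of these moves was not tested. The level filters changed both the number of genes tested and limma's variance estimates, and no fit separated these. For Mxd4 the standard error was 0.117 in the reported fit and 0.098 above the median level. Myc kept a log2 fold change between 1.37 and 1.59 in 13 alternatives. Leaving out 1 array, Mycl ranged from −0.024 to 0.19 and Mnt from −0.22 to 0.022, both turning sign without decitabine replicate 2, and no other member changed sign.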

Other observations

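Promoter windows of the lists around the network were rich in CpG. The median was 28 CpGs per window for the coactivators, the genes acting on Myc transcription and the mitochondrial targets, 25 for the corepressors and 22 for the nucleolar targets, against 13 for all windows of measured genes. The windows of the Mlx partner targets held fewer, with a median of 10. The E-box share of the translation list, 50% of 10 genes with a window, was above that of the cell cycle list, 14.3% of 14 genes, and neither share was tested. The window of Cdk4, a Myc target of the cell cycle list named after its values were seen, held 4 copies of the E-box, the log2 fold change of Cdk4 being −0.07 ± 0.11 with overlapping groups.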
